A study of Mus musculus with 30 samples.

Results

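Menin occupancy was mapped by chromatin immunoprecipitation and sequencing in WT-MA9 mouse acute myeloid leukaemia cells given vehicle or the Menin inhibitor MI-503. The regions described are all peaks of the 2 deposited Menin lists for these cells. They number 11203 of the 25651 peaks in the 4 lists analysed, with 11195 in vehicle and 8 in MI-503. WT-MA9 is a line of mouse leukaemia cells made to express the human fusion oncoprotein MLL-AF9 stably from the retroviral vector pMSCV-MLL-AF9-GFP, and both groups carry this fusion. The vehicle group received DMSO and the drug group MI-503, at a dose not given in the sources used here. Both grew in serum with the cytokines IL6, IL3 and SCF and were collected on day 4 of treatment. Each condition had 1 library, and both lists were called against the same vehicle input. No difference between vehicle and drug has a replicate check, no test between them was made, and drug and library cannot be told apart.

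Menin is a scaffold protein encoded by Men1, with no enzyme activity of its own. It binds the amino-terminal end of MLL1 and MLL2, the histone H3 lysine 4 methyltransferases encoded by Kmt2a and Kmt2b, and links them through LEDGF to chromatin. MLL-AF9 keeps the Menin-binding end of MLL1, and in leukaemia cells Menin is known for its part in keeping HOXA genes and Meis1 active. MI-503 occupies the pocket of Menin into which MLL1 fits.

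The vehicle map was led by peaks at gene starts, and the sequences below show the kind of promoter found at its top and 2 well-known leukaemia targets at which no peak was called. Each is the RefSeq window (GRCm38.p6, the assembly of mm10) from 250 bases before to 50 bases after a listed transcription start, written 5′ to 3′ on the strand of the gene. Capitals mark GGGCGG (the GC box), CCAAT (the core of the NF-Y site) and CCGGAA (the core of an ETS site), on either strand. Trappc2l encodes a subunit of the TRAPP vesicle-tethering complex, and its window (chr8:122611376-122611675, plus strand) lay under the highest peak.
Trappc2l: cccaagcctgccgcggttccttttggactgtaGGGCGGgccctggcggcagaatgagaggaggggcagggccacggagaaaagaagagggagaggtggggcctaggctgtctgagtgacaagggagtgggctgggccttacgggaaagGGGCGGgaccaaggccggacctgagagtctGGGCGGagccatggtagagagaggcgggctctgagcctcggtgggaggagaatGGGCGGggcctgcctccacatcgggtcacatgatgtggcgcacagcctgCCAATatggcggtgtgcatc
Tpst2, for a tyrosylprotein sulfotransferase of the Golgi, had the next highest peak (chr5:112276495-112276794, plus strand).
Tpst2: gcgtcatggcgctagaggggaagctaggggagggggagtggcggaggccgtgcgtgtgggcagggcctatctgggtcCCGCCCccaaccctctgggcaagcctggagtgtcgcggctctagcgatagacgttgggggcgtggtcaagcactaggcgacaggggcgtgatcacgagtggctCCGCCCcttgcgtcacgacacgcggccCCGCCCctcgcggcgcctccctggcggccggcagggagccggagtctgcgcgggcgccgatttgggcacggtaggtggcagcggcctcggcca
Tmem123, for the membrane protein porimin, is shown as another of the 10 highest (chr9:7763915-7764214, plus strand).
Tmem123: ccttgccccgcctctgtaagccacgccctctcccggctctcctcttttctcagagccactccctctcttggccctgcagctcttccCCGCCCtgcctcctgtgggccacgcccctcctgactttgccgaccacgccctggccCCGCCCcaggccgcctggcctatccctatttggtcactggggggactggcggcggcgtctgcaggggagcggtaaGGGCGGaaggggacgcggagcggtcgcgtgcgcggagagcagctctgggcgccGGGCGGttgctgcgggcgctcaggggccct
Hspa5, for the endoplasmic reticulum chaperone BiP, is shown for its 4 CCAAT matches (chr2:34771840-34772139, plus strand).
Hspa5: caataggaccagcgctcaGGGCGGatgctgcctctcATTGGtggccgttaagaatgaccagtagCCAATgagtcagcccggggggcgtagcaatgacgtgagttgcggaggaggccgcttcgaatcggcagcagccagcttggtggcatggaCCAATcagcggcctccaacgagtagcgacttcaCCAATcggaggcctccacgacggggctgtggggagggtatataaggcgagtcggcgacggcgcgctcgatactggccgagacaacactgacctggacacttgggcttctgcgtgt
Hoxa9 is shown as a target gene of MLL-AF9 without a peak at its start (chr6:52227321-52227620, minus strand).
Hoxa9: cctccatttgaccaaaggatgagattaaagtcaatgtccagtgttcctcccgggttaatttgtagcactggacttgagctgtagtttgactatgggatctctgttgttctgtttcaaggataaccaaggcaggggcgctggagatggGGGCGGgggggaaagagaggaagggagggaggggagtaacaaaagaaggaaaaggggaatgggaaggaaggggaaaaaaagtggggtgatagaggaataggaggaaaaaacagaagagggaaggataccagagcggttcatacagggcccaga
Meis1, for the cofactor of HOXA9, is shown for the same reason (chr11:19018920-19019219, minus strand).
Meis1: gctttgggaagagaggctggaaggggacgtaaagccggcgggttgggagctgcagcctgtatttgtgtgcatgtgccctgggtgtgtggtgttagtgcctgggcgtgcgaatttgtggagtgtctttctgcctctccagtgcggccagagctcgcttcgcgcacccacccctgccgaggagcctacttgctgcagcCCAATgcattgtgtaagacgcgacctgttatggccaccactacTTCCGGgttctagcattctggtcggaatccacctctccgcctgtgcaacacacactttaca
The 3 windows from the top of the map held 15 (Trappc2l), 33 (Tpst2) and 26 (Tmem123) CG dinucleotides. They held 4, 3 and 4 GC boxes in the same order. The Hoxa9 window held 4 CG dinucleotides and 1 GC box, and the Meis1 window 15 CG dinucleotides and no GC box. A match is a run of letters in the window and not a shown binding site.

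In vehicle, Menin peaks were narrow and covered 3629305 bp in all. Peak height is the authors' fold enrichment, the fragment pileup at the summit plus 1 over the local background from the input plus 1. It ran from 1.32 to 46.4, with a median of 5.87 and a 90th percentile of 13.1. Median width was 272 bp, and the widths ran from 179 to 3447 bp. Behind a median peak stood 29 fragments at the summit, with a range of 11 to 335. The −log10 q of the summits ran from 1.69 to 258.8.

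Most of the vehicle peaks lay at gene starts, and these were the taller ones. A summit within 1 kb of a start of a protein-coding gene was found for 6859 of 11195 peaks, or 61.3% (exact 95% Clopper-Pearson interval 60.4 to 62.2%; here and below the interval covers counting error only). A further 2174 peaks (19.4%) lay inside genes and 2162 (19.3%) between them. Median height was 6.91-fold at starts, 4.76-fold inside genes and 4.92-fold between genes. Median widths at these places, in the same order, were 331, 219 and 218 bp. The share at starts rose with height, from 36.9% of the lowest 10% of peaks to 87.9% of the highest 10%. Of the 2141 peaks of at least 10-fold, 85.7% lay at starts, as did 46 of the 49 peaks of at least 30-fold. These shares describe 1 library, and neighbouring peaks are not independent.

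**Figure D1:**
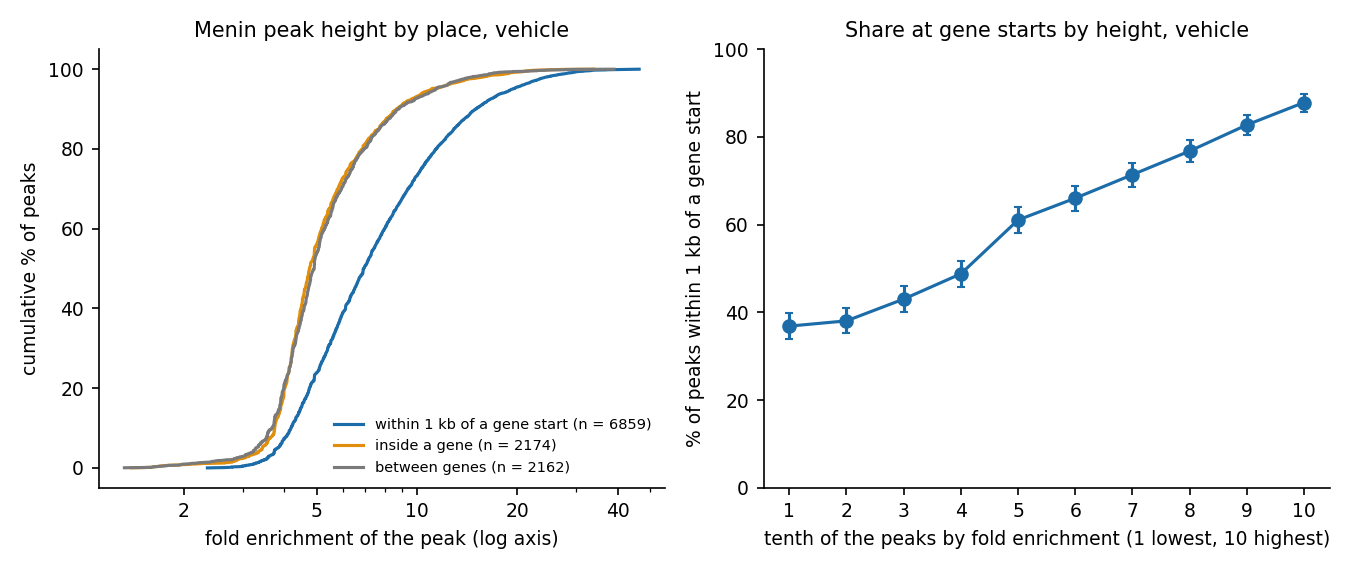
Left, the cumulative percentage of vehicle Menin peaks (y axis) against their fold enrichment (x axis, log scale) for the 6859 peaks at gene starts, 2174 inside genes and 2162 between genes. Right, the percentage of peaks at gene starts (y axis, with exact 95% intervals) in 10 equal groups of peaks by height (x axis), which runs from 36.9% in the lowest group to 87.9% in the highest.

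Summits sat just upstream of the start. For the 5807 peaks at starts of genes of known strand, the median summit lay 35 bp upstream, with quartiles at 96 bp upstream and 20 bp downstream. Within 100 bp of the start lay 65.5% of these summits, and within 250 bp 88.1%. Upstream summits made up 65.9%. The tall peaks were set further back: among the 1543 peaks of at least 10-fold the median was 52 bp upstream and 76.6% (74.4 to 78.7%) were upstream, against 12 bp and 54.1% (51.4 to 56.8%) among the 1369 peaks under 5-fold. These 2 intervals do not overlap.

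**Figure D2:**
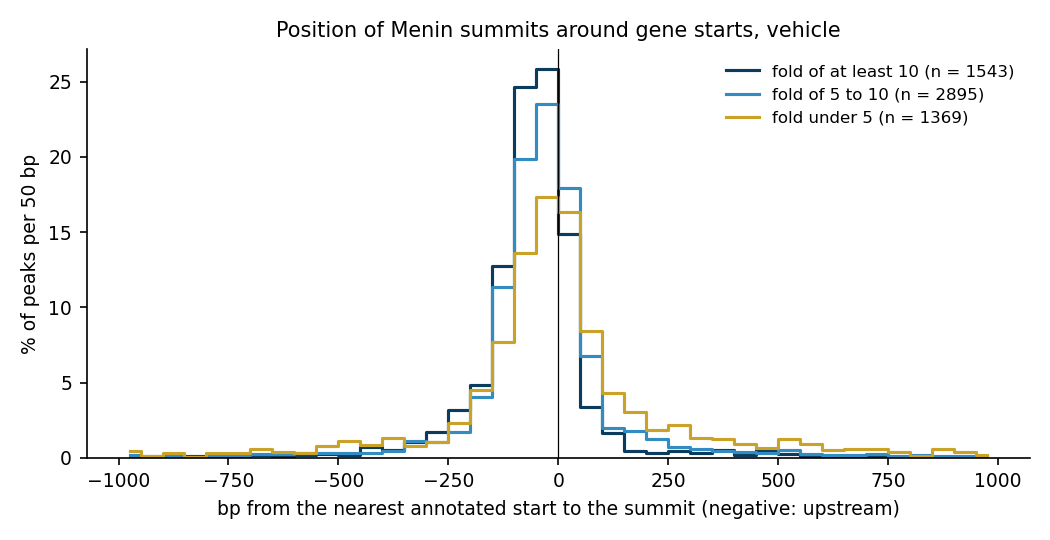
Percentage of summits per 50 bp (y axis) by distance in bp from the nearest annotated start to the summit (x axis, negative upstream), for peaks at starts of genes of known strand. The 3 lines are peaks of at least 10-fold (n = 1543), 5 to 10-fold (n = 2895) and under 5-fold (n = 1369), with the tallest peaks concentrated between 100 bp upstream and the start.

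The ends of genes carried few peaks that were not also near a start. Among 13412 genes of known strand that span at least 5000 bp, 5410 had a summit within 1 kb of the start or of the end. For 95.1% of them (94.5 to 95.6%) the summit lay near the start alone, for 2.64% near both and for 2.27%, or 123 genes, near the end alone. In 67 of these 123 genes the peak at the end lay at the start of another gene. Kmt2d, for the methyltransferase MLL4, was such a gene. Its end carried a 10.9-fold peak that lay within 1 kb of a start of Prkag1, for a regulatory subunit of AMP-activated kinase, and its own start had none. Men1, the gene of Menin itself, had a 4.82-fold peak at its start and a 5.52-fold peak at its end, which was also the start of Map4k2, for a kinase of the stress pathway.

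The 10 highest peaks at starts were at genes of varied function. The peak at Trappc2l, which it shared with Galns, for a lysosomal sulfatase, stood at 46.4-fold with 181 fragments at the summit (chr8:122611201-122611723). Tpst2 stood at 46.2-fold with 196 fragments (chr5:112276152-112276936). Usp28, for a deubiquitinase known to stabilise MYC, stood at 43.0-fold. Zfpm1, for the GATA cofactor FOG1, had a 42.3-fold peak of 1135 bp with 202 fragments (chr8:122281071-122282205). Ripk2, for a kinase downstream of NOD receptors, and Tmem123 both stood at 41.1-fold. Abtb1 (40.6), Pkd1, for polycystin 1 (39.1), Pcgf5, for a Polycomb ring finger protein (38.2), and Pdp1, for a phosphatase of pyruvate dehydrogenase (37.9), completed the 10. None of the 10 is a HOX gene or a member of the list of other MLL-fusion targets given below. The widest peaks at starts were at LOC108167694 (2038 bp, 32.5-fold), Klf11 (1423 bp, 10.6-fold), Garnl3 (1322 bp, 19.7-fold), Ell (1277 bp, 22.3-fold), Nr1d2 (1274 bp, 11.6-fold) and Klf16 (1255 bp, 27.9-fold). Ell encodes an elongation factor and a known MLL fusion partner, and Klf11 and Klf16 encode Krüppel-like transcription factors.

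Inside genes, 1606 peaks lay in genes of known strand. By definition none was within 1 kb of a start used here, which leaves out other transcription starts of the same gene. Of these, 17.5% lay within 5000 bp of the gene's outer start, 3.74% within 1 kb of the gene's end, and the median summit was 23709 bp from the start. The tallest was in Itpkb, for an inositol trisphosphate kinase of blood cells, at 33.9-fold with 171 fragments (chr1:180387427-180387902). Phf19, for a Polycomb accessory protein, held a 27.7-fold peak inside the gene and none at its start. Mllt10, for the MLL fusion partner AF10, held one of 21.6-fold, within 1 kb of Mir7655. Xrcc4, for a ligase cofactor of DNA end joining, held one of 22.3-fold. Fstl3 (24.7), Btbd19 (23.4), Borcs5 (22.3) and Acer1 (21.4) were also among the 10 tallest.

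Between genes, 35.8% of the 2162 peaks lay within 10000 bp of a named protein-coding gene and 72.0% within 50000 bp. For peaks between genes, the nearest gene and its distance leave out predicted genes with Gm or Rik symbols. A boundary of a gene of another biotype, such as a long noncoding RNA, lay within 1 kb of 330 of them (15.3%). The tallest was 5741 bp from Pura, at 39.0-fold. Ccne1, for cyclin E1, was the nearest gene to a 25.5-fold peak at 12990 bp. Fos, for the AP-1 factor, was the nearest to one of 24.3-fold at 18558 bp. The peak near Wnt7b (30.5-fold, 52737 bp away) and that near Irx5 (24.6-fold) each lay within 1 kb of a gene of another biotype, which near Irx5 was Crnde. Mcrs1 (28.0), Zfp119b (27.8), Glis2 (23.1), Smad6 (23.0) and Nfe2l3 (22.4) were the nearest genes to the remaining peaks of the 10 tallest.

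Most genes with a summit near a start or in the body held just 1, namely 6924 of 8510, while 1298 held 2 and 288 held 3 or more. Gse1, for a protein of histone deacetylase complexes, held 12 summits over 352883 bp, from 3.74 to 11.9-fold. Kdm6b, for the histone H3 lysine 27 demethylase JMJD3, held 6 inside a gene of 21860 bp, from 3.44 to 9.65-fold none of them within 1 kb of its start. Plec, Acoxl, Nfic and Zmiz1 also held 6 each and Arhgap26 held 7. The tallest of the 6 in Acoxl, at 13.6-fold, was the peak at the start of its neighbour Bcl2l11. Sfi1 held 23, yet all of these stood on high input: their background ran from 61.5 to 119.0 fragments, against a median of 3.56 over all peaks, and their height from 1.39 to 2.35-fold. The 13 peaks of the mitochondrial chromosome (background 136 to 241, height 1.32 to 2.07-fold) and the widest peak of all, nearest Esp38 (3447 bp, background 144, 2.25-fold), were of the same kind. The part of the input in the calls at these places was not tested.

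By gene, 7191 of 21887 protein-coding genes had a vehicle peak at a start, a background of 32.9% of genes called (interval 32.2 to 33.5%). Of the 6859 peaks at starts, 1043 (15.2%) lay near the starts of 2 or more genes. Such a peak counts for each of these genes, here and in the lists below. A peak of at least 10-fold was present at 2100 genes, a background of 9.59%. The median height over the 7191 genes was 7.31-fold. Where strand was unknown, as for 4395 genes, either boundary counted as a start, and the share was 27.3% there against 34.3% of genes of known strand. By chromosome the share ran from 0 of 256 genes on Y and 16.5% on X, through 26.9% on chromosome 14, to 39.0% on chromosome 11 and 40.6% on chromosome 8. The X interval lies below that of each autosome.

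Lists of genes for RNA and protein synthesis carried Menin at most of their members. In 39 of 52 gene lists the share with a peak was above that of all genes. The lists were written with earlier results of these data known, and their shares are descriptions. Splicing factor and hnRNP genes reached 68 of 73 (93.2%), with Hnrnpa2b1 at 19.1-fold as the tallest. RNA polymerase subunit genes reached 26 of 28, and the 2 without were Polr1b and Polr3a. Cytosolic ribosomal protein genes reached 71 of 86 and their mitochondrial counterparts 52 of 78. Rpl27a (27.0-fold) stood at the top of the former. Fau and Mrpl49, one from each list, shared a 19.1-fold peak between them. Among aminoacyl-tRNA synthetase genes 30 of 36 had a peak, with Yars at 29.7-fold, and among translation initiation factor genes 42 of 56 did. The tallest of the latter was counted for Eif4e1b, at 32.5-fold with its summit 708 bp from a start. The stress kinase gene Eif2ak4 stood at 25.7-fold. Mediator subunit genes (22 of 30, Med6 at 21.9-fold), TAF and general transcription factor genes (36 of 47, Gtf2h3 at 18.8-fold) and DEAD and DEAH box helicase genes (34 of 53, Dhx35 at 29.9-fold) were nearer to the middle.

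**Figure D3:**
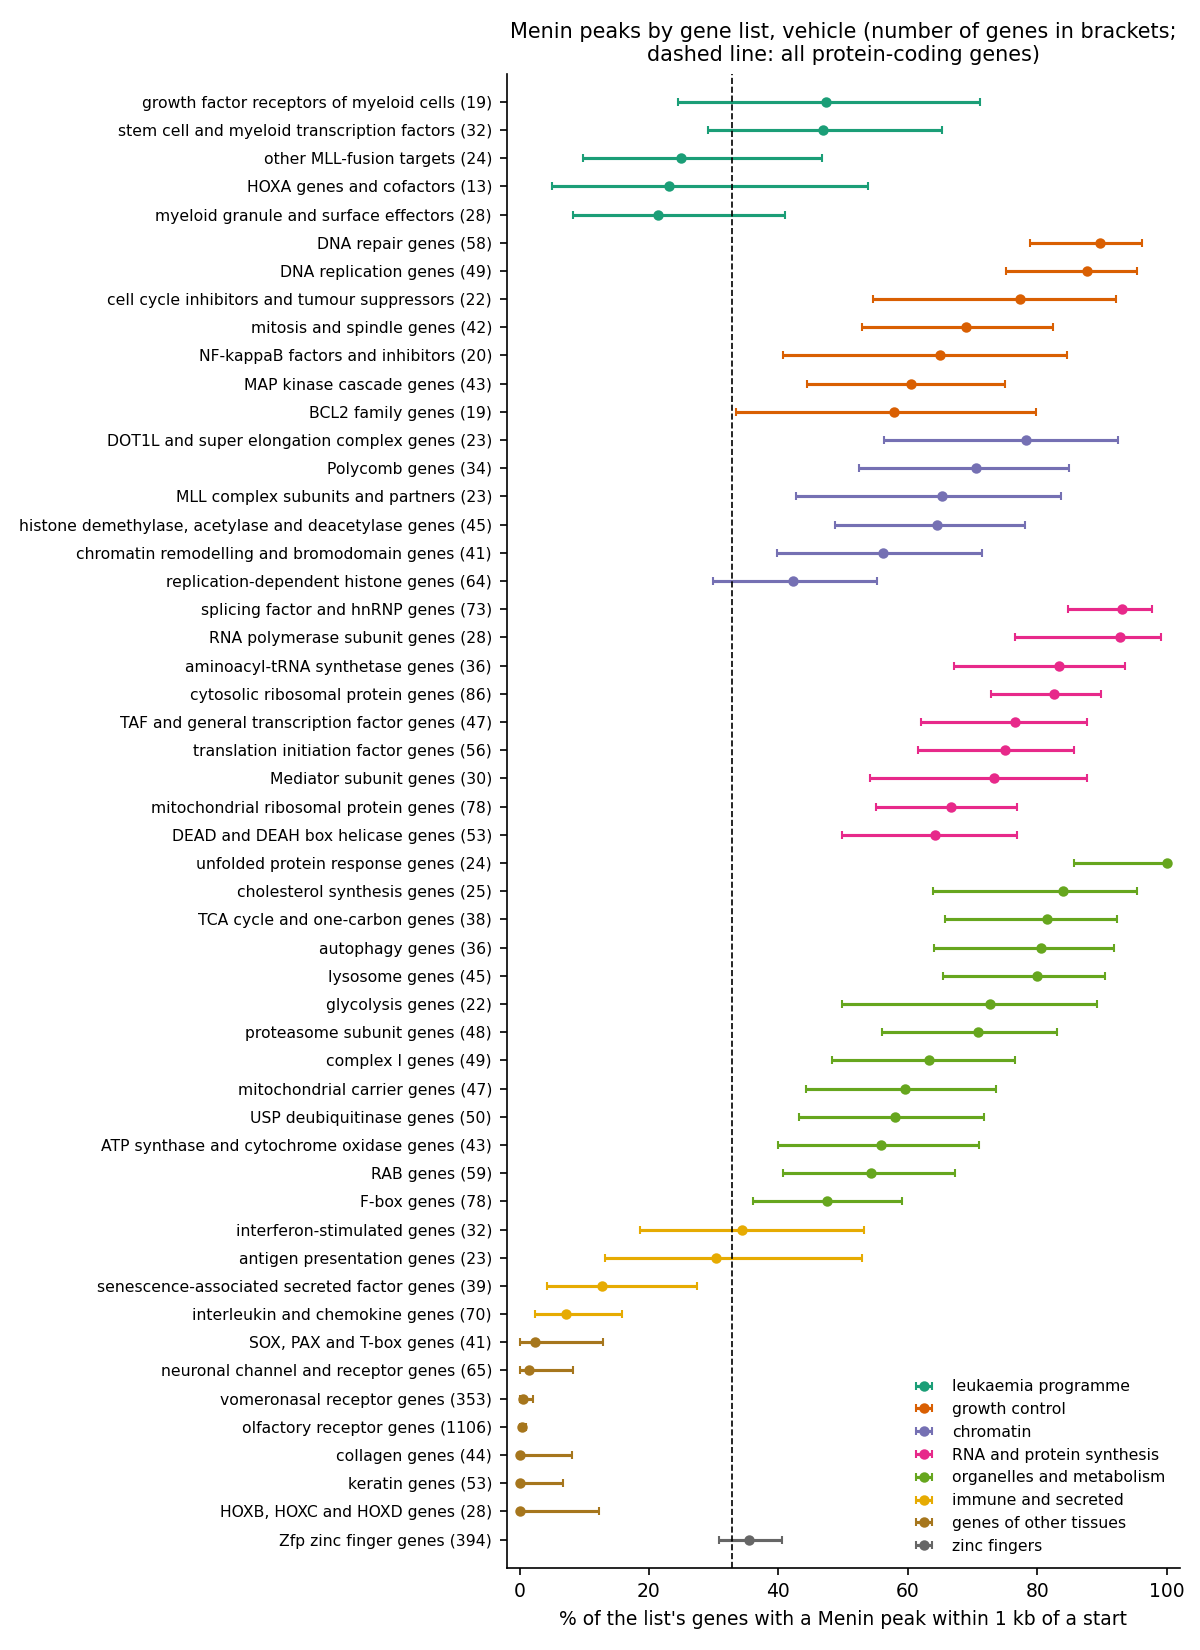
Percentage of the genes of each list with a vehicle Menin peak within 1 kb of a start (x axis, exact 95% intervals), with list sizes in brackets, colours for the class of list and a dashed line at the 32.9% of all protein-coding genes. Lists of RNA, protein and organelle upkeep lie to the right of the line, and lists of genes of other tissues at or near 0.

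The unfolded protein response list was the one in which every gene had a peak, 24 of 24, which leaves a lower interval bound of 85.8%. A peak of at least 10-fold was present at 11 of the 24. Of all genes, 32.9% had a peak and 9.59% one of at least 10-fold. This pathway senses misfolded protein in the endoplasmic reticulum and raises chaperones and degradation. Edem1, for a lectin that sends glycoproteins to degradation, stood at 21.3-fold, and the sensor gene Ern1 (IRE1) at 21.1-fold. The chaperone genes Dnajb9 and Hyou1 stood at 17.5 and 14.4-fold. The effector transcription factor genes were lower: Atf4 at 10.3-fold, Ddit3 (CHOP) at 7.98-fold and Xbp1 at 5.09-fold. Hspa5, whose promoter is printed above, stood at 8.24-fold with 61 fragments.

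The counts that follow stand beside the 32.9% of all genes with a peak. Cholesterol synthesis genes reached 21 of 25, led by Lss (21.8-fold), which closes the sterol ring, and Srebf2 (20.1-fold), the master regulator of the pathway. Pmvk, Fdps and Fdft1 were among those without a peak. Lysosome genes reached 36 of 45, with Mcoln1, a calcium channel of the lysosome, at 25.2-fold and the cholesterol carrier gene Npc2 at 23.5-fold. Autophagy genes reached 29 of 36, with Wipi1 at 29.5-fold and the initiating kinase gene Ulk1 at 20.5-fold. TCA cycle and one-carbon genes reached 31 of 38, with Aco1 at 18.4-fold. Glycolysis genes reached 16 of 22, of which Hk1 at 10.9-fold was the single member above 10-fold. Proteasome subunit genes reached 34 of 48, complex I genes 31 of 49 and ATP synthase and cytochrome oxidase genes 24 of 43. The large families were more mixed. RAB genes reached 32 of 59, with Rab22a at 33.6-fold. USP deubiquitinase genes reached 29 of 50, with Usp28 at 43.0-fold and Usp12 at 33.4-fold. F-box genes reached 37 of 78, with Fbxw7, for the adaptor that degrades MYC and cyclin E, at 18.8-fold. Mitochondrial carrier genes reached 28 of 47, with the citrate carrier gene Slc25a1 at 21.4-fold.

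Genes of growth control were also often marked, and the counts below stand beside the 32.9% of all genes with a peak. DNA repair genes reached 52 of 58, with Bard1, the partner of BRCA1, at 28.3-fold and the Ku70 gene Xrcc6 at 26.0-fold. DNA replication genes reached 43 of 49, with Pole4 at 29.8-fold and the origin genes Orc4 and Orc5 at 19.5-fold each. Mitosis and spindle genes reached 29 of 42, among which Cdk1, Ccnb1 and Cdc20 had no peak. Of the cell cycle inhibitors and tumour suppressors 17 of 22 had a peak. Cdkn2d stood at 14.6-fold. Cdkn2a and Cdkn2b, which neighbour each other, had peaks of 5.39 and 6.96-fold. Cdkn2c (p18), known as a Menin target in endocrine cells, stood at 5.79-fold, and Cdkn1b (p27), known as another, had no peak at its start. In the BCL2 family 11 of 19 genes had a peak, including the death genes Bnip3l (18.3-fold), Bcl2l11 (13.6-fold) and Bax (13.0-fold), while Bcl2, which is on the list of fusion targets, had none at its start. MAP kinase genes reached 26 of 43 with the JNK1 gene Mapk8 at 37.0-fold and Map2k1 (MEK1) at 26.2-fold. NF-kappaB factors and inhibitors reached 13 of 20, with Relb at 18.9-fold and the feedback inhibitor gene Tnfaip3 at 16.4-fold, and without a peak at Rela or Nfkb1.

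Genes for chromatin proteins carried peaks too, the MLL complexes among them. Of all genes 32.9% had a peak and 9.59% one of at least 10-fold. In the list of MLL complex subunits and partners 15 of 23 genes had a peak, of which Kmt2c alone passed 10-fold, at 12.2-fold. Kmt2a, for MLL1, had one of 6.72-fold at its start and Kmt2b, for MLL2, one of 5.94-fold. Hcfc1 (7.49), Cxxc1 (7.29), Ash2l (6.88) and Wdr5 (5.77) encode shared or related subunits. Psip1, for LEDGF, had none. The list named for DOT1L and the super elongation complex, which also takes in genes outside these complexes such as Larp7, reached 18 of 23. It was led by Ell (22.3-fold), Larp7 (16.9-fold) and the cyclin T genes Ccnt2 (14.6-fold) and Ccnt1 (13.4-fold). Polycomb genes reached 24 of 34, with Pcgf5 at 38.2-fold and the deubiquitinase gene Bap1 at 22.6-fold. Among histone demethylase, acetylase and deacetylase genes 29 of 45 had a peak, and Kdm1b (LSD2) stood at 37.0-fold with 187 fragments. Chromatin remodelling and bromodomain genes reached 23 of 41, with the methyl-CpG reader gene Mbd2 at 33.3-fold and Ep400 at 26.4-fold. Replication-dependent histone genes, 27 of 64, rarely passed 10-fold. H3c1 and H4c1 shared the tallest of these, at 12.1-fold. The interval of that list, 29.9 to 55.2%, holds the share of all genes. Within 3 kb of a start its count was 38 of 64 (59.4%), beside 35.1% of all genes in that window.

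The genes best known as targets of the fusion had peaks at a minority of their starts. In the list of HOXA genes and cofactors 3 of 13 had a peak at a start (23.1%, interval 5.04 to 53.8%): Pbx3 at 10.97-fold with 42 fragments, Hoxa11 at 8.74-fold with 46 and Hoxa3 at 3.05-fold with 17. The interval holds the 32.9% of all genes. Across the whole HOXA cluster there was 1 further summit, of 5.09-fold nearest Hoxa7 (chr6:52217429-52217636). No peak was called in Meis1, Mecom or Cdk6 at the start or in the body. In Flt3, for a receptor kinase of myeloid progenitors, the single peak was inside the gene, at 10.2-fold. Other MLL-fusion targets had a peak at 6 of 24 starts, of which Dot1l (13.5-fold), for the histone H3 lysine 79 methyltransferase, and Runx1 (8.83-fold) were the tallest. The interval of that share, 9.77 to 46.7%, also holds the share of all genes. Within 3 kb of a start the count was 10 of 24 (41.7%), above the 35.1% of all genes in that window. No peak means that the list holds none there at the threshold of the authors, and not that Menin was absent.

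Myeloid regulators and receptors stood between, with intervals that hold the 32.9% of all genes. Stem cell and myeloid transcription factors had a peak at 15 of 32 genes (46.9%, interval 29.1 to 65.3%). Besides Zfpm1 (42.3-fold), these included Nfe2 (19.2-fold), Spi1, for the myeloid master regulator PU.1 (12.1-fold), Cebpg (11.9-fold) and Cebpa (5.63-fold), but not Cebpd, Cebpe or Runx3. Growth factor receptors of myeloid cells reached 9 of 19 (47.4%, interval 24.4 to 71.1%). At a −log10 q of at least 5 the receptors stood at 6 of 19 (31.6%), beside 31.0% of all genes. The transcription factors stood at 37.5% there. The interferon-gamma receptor gene Ifngr1 stood at 17.1-fold, and the receptor genes for the medium cytokines IL6 and IL3, Il6ra and Il3ra, at 7.13 and 6.97-fold. Kit, for the SCF receptor, carried one of the low peaks, at 4.27-fold. Csf1r and the shared chain gene Csf2rb had none. Myeloid granule and surface effectors reached 6 of 28 with none at 10-fold: S100a9 (5.85-fold) and S100a8 (4.54-fold) had one, and Mpo, Elane and Prtn3 did not. Of all genes 9.59% had a peak of at least 10-fold, which the interval of this list, 0 to 12.3%, holds. Within 3 kb of a start the count for this list was 11 of 28 (39.3%), which takes it from below to above the share of all genes. Of the markers of cell types, 4 of 6 myeloid genes (Spi1, Cebpa, Csf3r, Kit), 0 of 3 erythroid, 0 of 3 fibroblast and 1 of 4 lymphoid genes (Ebf1, 5.63-fold) had a peak, beside 32.9% of all genes. Csf3r (3.94-fold) and Kit stood below Ebf1. Within 3 kb of a start 1 of the 3 erythroid genes, Klf1, had a peak too, and the other counts were the same. A Menin peak is not a measure of expression and names no cell type.

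Secreted immune genes and genes of other tissues were mostly bare. Interferon-stimulated genes (11 of 32) and antigen presentation genes (7 of 23) were near the background of 32.9%. Stat2 (11.2-fold) and Irf1 (7.68-fold) had peaks, and Isg15, Ifit1 and Ifit2 had none. Senescence-associated secreted factor genes reached 5 of 39 and interleukin and chemokine genes 5 of 70, without a peak of 10-fold in either list. Tgfb1 (8.52-fold) was the tallest of the former, and Il6, Il1a and Il1b had none. No HOXB, HOXC or HOXD gene (0 of 28, upper interval bound 12.3%), no keratin gene (0 of 53) and no collagen gene (0 of 44) had a peak at a start. Sox8 (4.24-fold) was the 1 of 41 SOX, PAX and T-box genes, and Grina (4.44-fold) the 1 of 65 neuronal channel and receptor genes. Olfactory receptor genes had 5 of 1106, with Olfr593 at 8.21-fold, and vomeronasal receptor genes 2 of 353, with Vmn1r4 at 17.1-fold. The Zfp zinc finger genes, at 140 of 394 (35.5%), were close to all genes.

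Promoter sequence moved with the presence of a peak. Over the 17492 promoter windows of protein-coding genes, 1 per gene, the median window held 23 CG dinucleotides and 62.3% GC at the 5702 with a peak within 1 kb of that start, and 6 and 52.0% at the 11790 without. A peak was present at 1.61% of windows with 0 to 4 CG dinucleotides, 10.6% with 5 to 9, 42.2% with 10 to 19, 62.4% with 20 to 29 and 57.4% with 30 or more. Median height rose over the same classes, from 5.15 through 5.70, 6.54 and 7.66 to 8.46-fold. Shares also varied between lists among promoters rich in CG. Among the windows with at least 20 CG dinucleotides a peak stood at 60.4% (3811 of 6313), yet at 0 of 5 HOXB, HOXC and HOXD genes, 0 of 9 collagen genes, 0 of 14 neuronal genes (upper bound 23.2%) and 1 of 13 SOX, PAX and T-box genes. Above the same minimum it stood at 17 of 17 unfolded protein response genes, 11 of 11 cholesterol synthesis genes, 13 of 13 RNA polymerase subunit genes and 36 of 38 cytosolic ribosomal protein genes. These lists are the extremes. Others lay near the share of all such windows, among them DOT1L and super elongation complex genes (62.5%), NF-kappaB factors and inhibitors (6 of 10), Polycomb genes (65.0%) and Zfp zinc finger genes (54.8%). CG content above the minimum of 20 was not matched between lists. Whether the genes of other tissues were expressed was not measured here.

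Short motifs were counted on both strands of the same windows. The GC box GGGCGG was in 46.3% of all windows, in 33.0% of those without a peak and in 73.8% of those with one. In 4 equal groups of peaks from the lowest to the highest, its share was 62.6, 68.9, 77.3 and 86.2%. CCGGAA was in 19.1% of all windows and in 36.6% of those with a peak, with no such climb: 37.0, 34.9, 38.4 and 36.1%. CCAAT was in 39.0% of all windows and in 44.3% (43.0 to 45.6%) of those with a peak, with 39.1, 47.6, 46.9 and 43.8% in the 4 height groups. The TATA word TATAAA went the other way, with 13.3% of all windows and 5.23% of those with a peak. GCGCATG, a core of the NRF1 site, rose from 4.89% of all to 9.89% with a peak, TGACGTCA, the full CRE, from 2.34 to 4.77% and CACGTG, the E-box, from 7.90 to 12.5%. AAGATGG, a core of the YY1 site, was at 6.37% of all windows and 8.26% with a peak. ACTACAA, a core of the ZNF143 site, was at 3.84 and 4.82%, and its share fell with height, from 6.97% in the lowest group to 2.93% in the highest. These shares were not matched on base content, and GGGCGG and CCGGAA are themselves rich in G and C.

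CCAAT and CCGGAA were also looked at within classes of CG content, and the other motifs were not split in this way. With 20 to 29 CG dinucleotides, 71.8% (69.4 to 74.1%) of windows with CCAAT had a peak, against 56.2% (54.1 to 58.3%) of those without. With CCGGAA the share was 76.3% (73.9 to 78.6%), and without it 55.3% (53.3 to 57.3%). With 10 to 19 CG dinucleotides the values were 50.3 and 36.1% for CCAAT and 58.6 and 36.6% for CCGGAA. With 5 to 9 they were 12.3 and 9.36% for CCAAT, with overlapping intervals, and 16.7 and 9.69% for CCGGAA. Below 5 CG dinucleotides the CCAAT shares were 1.52 and 1.66%, with overlapping intervals. The CCGGAA shares there were 4.07 and 1.55%, and their intervals overlap too. Median peak height with and without CCAAT was 7.87 and 7.49-fold at 20 to 29 CG dinucleotides, 9.12 and 8.08-fold at 30 or more, 6.61 and 6.44-fold at 10 to 19 and 6.06 and 5.16-fold at 5 to 9.

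**Figure D4:**
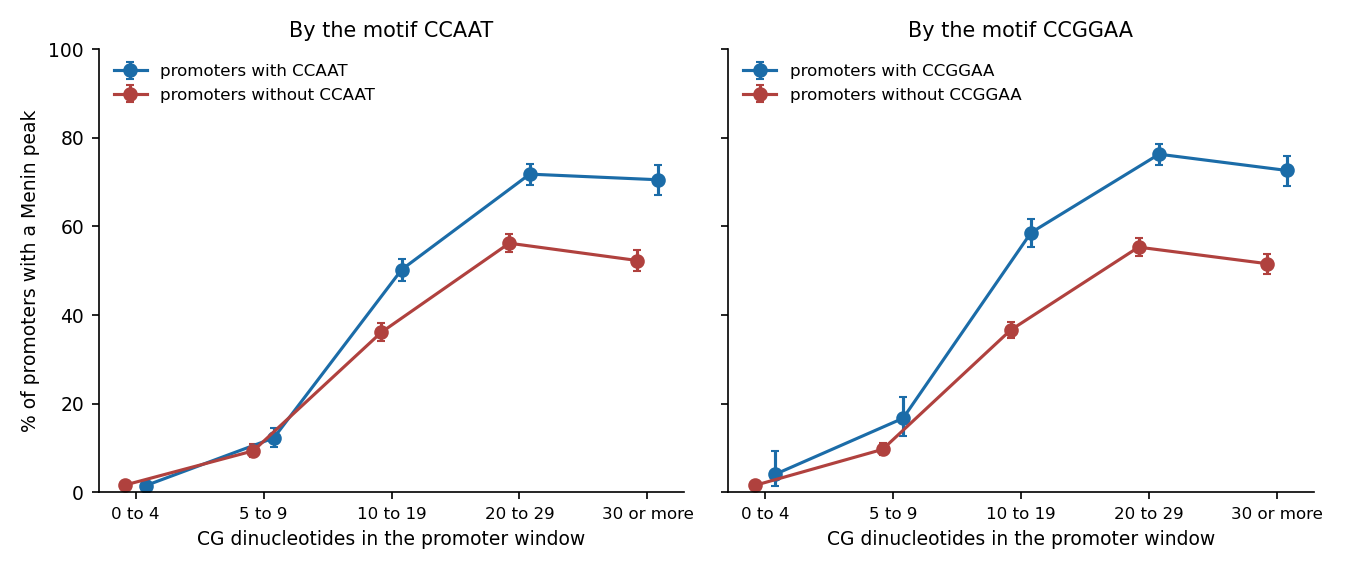
Percentage of promoter windows with a vehicle Menin peak (y axis, exact 95% intervals) by number of CG dinucleotides in the window (x axis), for windows with and without CCAAT (left) and with and without CCGGAA (right). From 5 CG dinucleotides upward the windows with either motif lie above those without it, although at 5 to 9 the intervals for CCAAT overlap.

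In MI-503 the list held 8 peaks covering 581 bp, against 11195 covering 3629305 bp in vehicle. Of the 11195 vehicle peaks, 1 shared any base with a drug peak, and the same held for 1 of the 2141 of at least 10-fold. Genes with a drug peak at a start were 2 of 21887, a background of 0.00914%. The pair is Chchd7, for a mitochondrial protein, and Plag1, for a growth-promoting zinc finger factor, known as a divergent pair that shares a promoter region.

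The peak between Chchd7 and Plag1 was the one place that both lists shared. In vehicle it stood at 35.5-fold with 139 fragments (chr4:3938502-3939118), higher than 99.8% of vehicle peaks. In MI-503 it stood at 7.80-fold with 22 fragments (chr4:3938716-3938782), with its summit 9 bp from that in vehicle. Its −log10 q of 6.91 was the lowest of the 8 drug peaks and that in vehicle was 170.6. No drug peak was called at any of the 10 highest vehicle peaks at starts, such as those of Trappc2l, Tpst2, Usp28 and Zfpm1.

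The other 7 drug peaks lay away from every vehicle peak. Those inside genes were in Dpp9, for a dipeptidyl peptidase (12.7-fold, 45 fragments, 11368 bp from the nearest vehicle summit), and in Myo7a, for an unconventional myosin (9.52-fold, 28 fragments). Between genes, 3 lay far from any protein-coding gene, nearest Trim52 (15.5-fold, 939477 bp), Nxph1 (13.1-fold, 936814 bp) and Cldn34c1 (13.5-fold, 272096 bp). The peaks nearest Prh1 (9.70-fold) and Frmd4a (3.50-fold, 107 fragments) stood on a background 4.10 and 22.5 times the lowest of that list. None of the HOXA, Meis1, Pbx3, Mecom, Cdk6, Flt3, Men1 or Kmt2a loci held a drug peak. In vehicle the HOXA cluster had held 3, the Men1 and Kmt2a loci 2 each and those of Pbx3 and Flt3 1 each. At the Kmt2a locus, the 6.72-fold peak was nearest Kmt2a and the 9.50-fold peak nearest Tmem25. The 5.52-fold peak at the Men1 locus was nearest Map4k2.

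**Figure D5:**
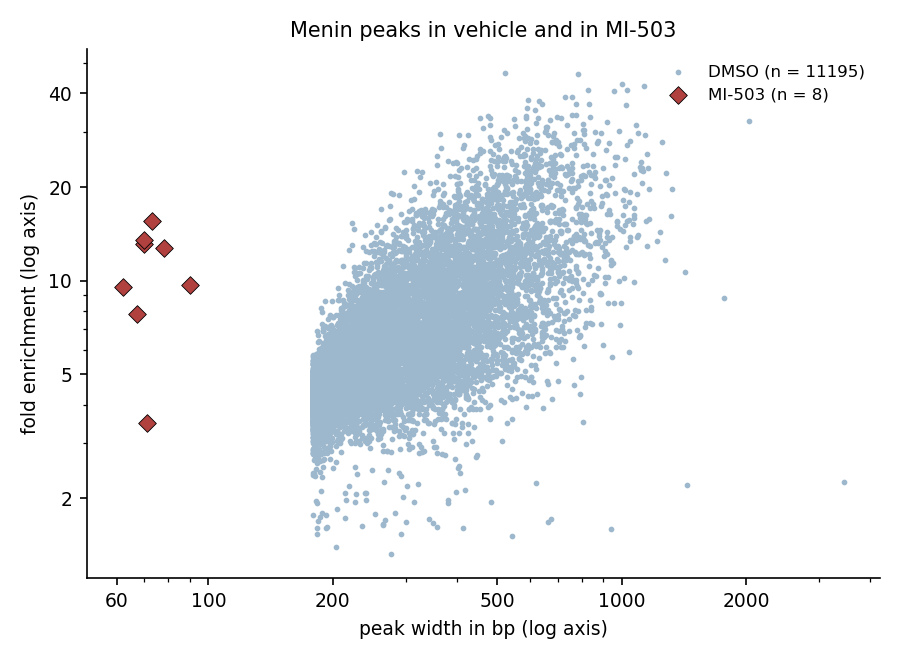
Fold enrichment (y axis, log scale) against width in bp (x axis, log scale) of the 11195 vehicle (DMSO) and 8 MI-503 Menin peaks, 1 point per peak. The drug peaks are 62 to 90 bp wide, all narrower than the narrowest vehicle peak of 179 bp, at heights of 3.50 to 15.5-fold.

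The lists differ in how they were called as well as in length. MACS2 reports no peak narrower than the fragment length to which it extends reads, and the narrowest peak was 179 bp in vehicle and 62 bp in MI-503. The lowest background was 2.34 fragments in vehicle and 0.977 in MI-503. Heights and fragment counts at the summit are thus not on the same scale in the 2 lists, and the part of this in the number of drug peaks was not tested. The pileups recovered from the deposited values put the MI-503 library at 1.35 times the input and the vehicle library at no more than the input. Of the vehicle peaks, 8027 (71.7%) had a −log10 q of at least that of the lowest drug peak, and 7989 (71.4%) had at least its 22 fragments. By p-value the count was lower: 6307 vehicle peaks had at least the −log10 p of that drug peak, 13.6. None of these counts corrects for the difference in scale.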

How the data were processed

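Menin peak lists of 2 libraries, DMSO and MI-503, were analysed. Peaks were called with MACS2 and mm10 was used, per the submitters' processing notes, with no version. Aligner, filters and q cutoff were not given in the sources used here. The peak names in the deposited lists pair both libraries with 1 vehicle input, and each list comes from a single library. The deposited fold is a ratio of summit pileup to local background, each plus 1. The deposited −log10 values are those of the p-value and q-value, and the deposited score equals 10 times −log10 q, cut to a whole number. The deposited summit offset gave the summit.

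Gene positions and promoter windows came from RefSeq (GRCm38.p6). Strand was known for 17492 of 21887 protein-coding genes. For the other 4395 either boundary counted as a start. For a gene of known strand the starts used were its 1 listed transcription start and its outer boundary on that strand. Other transcription starts of a gene were not used, so peaks at these may count as inside genes. A gene had a peak where a summit lay within 1 kb of a start used, and its height was that of the highest such peak. Fragments and backgrounds were recovered by solving fold and p-value together, and pileups came out as whole multiples, within 0.01, of a step of 1 in all 400 DMSO peaks tried and of 0.742 in all 8 MI-503 peaks, against at most 32% and 37.5% at other steps. A step of 0.742 means scaling down by 1.35. Absolute depth is unknown. On simulated data the code found 100% of 200 summits planted within the window searched, and the pileup was recovered in 100% of 444 and of 447 peaks. These simulated peaks stood well above low backgrounds. Backgrounds as high as those at Sfi1 and on the mitochondrial chromosome were not simulated. Motifs were searched on both strands.

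Lists (24 by name and 28 by symbol pattern, 3873 genes) matched all but 2 of 733 names. The members and lists were chosen with earlier results of these data known. Genes named are, per list, up to 4 with the highest fold and up to 3 without a peak, the 10 highest peaks by place, the 10 widest, the 10 genes with most summits and every MI-503 peak. Others, such as Atf4, Ddit3, Xbp1, Hspa5, Cdkn2a, Cdkn2b, Cdkn2c, Bcl2, Kmt2a, Kmt2b, Wdr5, Men1, Cebpa, Kit, Irf1, Meis1, Hoxa9 and Flt3, were chosen for their known roles. A few genes within this rule are not reported here. Python 3.11.15, pandas 2.3.3, numpy 2.4.6, scipy 1.17.1 and matplotlib 3.10.9 were used. Alternatives covered the window, the q and fold thresholds and the definition of overlap.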

Additional observations from a re-analysis of the deposited data

How the results depend on the processing

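The share of vehicle peaks at gene starts was 61.3% with a 1 kb window, 58.1% with 500 bp and 66.4% with 3 kb. It was 66.1% for peaks with a −log10 q of at least 5 and 72.7% for those of at least 5-fold. The share of genes with a peak, 32.9%, became 31.6%, 35.1%, 31.0% and 26.3% under the same settings in that order. Settings added after seeing the data gave 51.9% of peaks and 34.3% of genes with genes of known strand alone, and 31.5% of genes without peaks on a background of 3 or more times the lowest. That setting left 10637 vehicle and 6 MI-503 peaks. The median height at starts was 1.43 times that elsewhere as fold and 2.23 times as −log10 q. CCAAT was in 44.3% of windows with a peak within 1 kb and in 47.8% where the summit lay inside the window. At a −log10 q of at least 5, no list changed side of the all-gene share. Within 3 kb, 2 of 52 did: other MLL-fusion targets and myeloid granule and surface effectors. Replication-dependent histone genes stayed above the all-gene share but went from 42.2 to 59.4%. The vehicle peak shared with MI-503 was the same 1 under both other definitions of overlap. No paired analysis was possible because each condition had 1 library, and for the same reason no replicate could be left out. Absolute depth is unknown, so no lower limit of detection can be given for genes without a peak.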
